A study of Mus musculus with 8 samples.

Results

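9 genes of antigen presentation were followed across the 8 RNA libraries of a study of RAW264.7 cells: B2m, H2-T23, Tapbpl, Erap1, Nlrc5, Cd74, Calr, Canx and Pdia3. They were chosen by name, as genes of this pathway whose reads can be counted because their symbol does not lose its reads to repeated copies of the major histocompatibility complex (MHC) in the assembly, and they are 9 of the 42454 rows of the deposited count table. All 9 passed the filter on low counts, with at least 32 counts in every library. H2-T23 is a partial exception to that description, because its symbol has 2 numbered copies. Both copies held 0 counts, so its values are the reads placed on its chromosomal row. Reads that match a copy equally well were not counted, so its level may be understated.

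RAW264.7 is a mouse macrophage-like line that grew out of a tumour induced by Abelson leukaemia virus, and every library came from this 1 line. The labels give 4 groups of 2 libraries. The group called LPS_IFNg_TubB here was labelled as receiving lipopolysaccharide (LPS, 10 ng/ml) and interferon-γ (IFN-γ, 20 ng/ml) for 24 h together with Tubuloside B, a phenylethanoid glycoside from plants. LPS_IFNg was labelled as receiving the same stimulus without the compound, TubB as receiving Tubuloside B, and mock as receiving the solvent DMSO. The dose of Tubuloside B and the duration in TubB and mock are not given in the sources used here. Polyadenylated RNA was sequenced with a kit that does not keep the strand. Between 4767894 and 8413834 reads were counted per library. The labels do not say that replicates were separate cultures, so every p-value measures only the spread between these samples. These are bulk libraries, in which fewer cells of a kind and less RNA per cell cannot be told apart.

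The labels and the genes that LPS with IFN-γ is known to induce pointed in different directions. Nos2, which encodes inducible nitric oxide synthase, had 7429 and 6156 CPM (counts scaled to a common library size) in the libraries labelled LPS_IFNg_TubB, 199 and 166 CPM in those labelled LPS_IFNg, 6964 and 5762 CPM in those labelled TubB, and 176 and 155 CPM in those labelled mock. Ptgs2, Irf1 and Gbp2 were split in the same way, high in both groups labelled with the compound and low in both groups labelled without it. Groups are therefore called "libraries labelled X", and each direction below is a direction between labels. Macrophage markers summed to between 6630 and 7214 CPM in all 8 libraries, with 8 of the 9 markers tested and Mertk at 0. Lyz2 made up most of that sum, and single macrophage markers moved with the groups. Adgre1 averaged 94.0 CPM in LPS_IFNg_TubB, 13.3 in LPS_IFNg, 81.4 in TubB and 12.4 in mock. Fcgr1 averaged 40.6 CPM in LPS_IFNg_TubB, 11.3 in LPS_IFNg, 41.5 in TubB and 11.7 in mock. Ptprc averaged 415 CPM in LPS_IFNg_TubB, 203 in LPS_IFNg, 399.6 in TubB and 203 in mock. Csf1r was lower with the compound label, at 197 CPM in LPS_IFNg_TubB, 478 in LPS_IFNg, 200 in TubB and 461 in mock. Of the dendritic cell markers, 3 of 8 were at 0 and the sum was between 40.4 and 54.5 CPM. The sums for B cell, T or NK cell, fibroblast and epithelial markers did not exceed 2.93 CPM in a library. Neutrophil markers moved with the groups. They summed to 46.4 and 43.1 CPM in LPS_IFNg_TubB, 7.24 and 6.46 CPM in LPS_IFNg, 57.1 and 37.6 CPM in TubB, and 7.54 and 7.36 CPM in mock, almost all of it from S100a8 and Csf3r, while Ly6g, S100a9 and Mpo were at 0 in every library. Xcr1, of the dendritic cell list, averaged 11.8 CPM in LPS_IFNg_TubB, 0.170 in LPS_IFNg, 15.2 in TubB and 0.430 in mock. The part of these markers in the results below was not tested.

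As background, MHC class I molecules show peptides from inside the cell to cytotoxic T cells. A class I heavy chain folds in the endoplasmic reticulum (ER) with the lectin chaperones calnexin and calreticulin and the oxidoreductase Pdia3, pairs with β2-microglobulin, and receives a peptide that aminopeptidases have trimmed and that loading and editing proteins have selected. MHC class II molecules show peptides from ingested material and are escorted by the invariant chain Cd74. Interferon-γ is known to raise class I and class II genes in macrophages through Irf1 and the transactivators Nlrc5 and Ciita, whereas the folding chaperones of the ER are controlled mainly by protein load in that compartment.

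The DNA just upstream of the genes is shown because the interferon response element and the ER stress element were found in different genes of the 9. RefSeq promoter windows (GRCm38.p6), 250 bases before to 50 bases after the start, were matched by symbol for 6 of the 9 genes, namely B2m, H2-T23, Erap1, Calr, Canx and Pdia3. In the first pair, capitals mark the core of the interferon-stimulated response element (GAAA, any 2 bases, GAAA, searched on both strands) and the CCAAT box, whose complement reads ATTGG. B2m lies at chr2:122147437-122147686 on the plus strand and H2-T23 at chr17:36032702-36032951 on the minus strand, each ending at the base before the start.
B2m: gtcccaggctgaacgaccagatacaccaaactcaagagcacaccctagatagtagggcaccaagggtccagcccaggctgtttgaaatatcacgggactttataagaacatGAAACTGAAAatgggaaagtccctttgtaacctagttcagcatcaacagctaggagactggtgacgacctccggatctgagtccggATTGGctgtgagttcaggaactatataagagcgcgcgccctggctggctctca
H2-T23: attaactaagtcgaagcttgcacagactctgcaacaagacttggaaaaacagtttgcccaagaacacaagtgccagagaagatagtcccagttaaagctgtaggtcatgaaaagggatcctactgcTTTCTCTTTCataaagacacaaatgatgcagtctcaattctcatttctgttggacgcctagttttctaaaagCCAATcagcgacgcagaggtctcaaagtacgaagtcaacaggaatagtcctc
Counted from the start, with -1 as the base before it, the response element core lay at -139 to -130 in B2m and, on the opposite strand, at -124 to -115 in H2-T23. Erap1 had it at -4 to 6, across the start that its RefSeq window uses. The bases before that start lie at chr13:74639603-74639852, whereas the counted Erap1 gene begins at 74639573. This match thus lies inside the counted gene and not upstream of it. The response element core was found in these 3 of the 6 windows and in 3.44% of the 32851 windows of the table.

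In the chaperone genes, capitals mark CCAAT boxes and the ER stress element (CCAAT, any 9 bases, CCACG, both strands), which begins with a CCAAT box and so overlaps it. Calr lies at chr8:84846932-84847181 and Canx at chr11:50325674-50325923, both on the minus strand.
Calr: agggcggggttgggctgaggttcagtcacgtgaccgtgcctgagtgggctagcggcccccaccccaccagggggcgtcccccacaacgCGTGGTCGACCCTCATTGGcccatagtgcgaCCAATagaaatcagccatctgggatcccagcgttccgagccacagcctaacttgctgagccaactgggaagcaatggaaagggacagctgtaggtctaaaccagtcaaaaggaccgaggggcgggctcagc
Canx: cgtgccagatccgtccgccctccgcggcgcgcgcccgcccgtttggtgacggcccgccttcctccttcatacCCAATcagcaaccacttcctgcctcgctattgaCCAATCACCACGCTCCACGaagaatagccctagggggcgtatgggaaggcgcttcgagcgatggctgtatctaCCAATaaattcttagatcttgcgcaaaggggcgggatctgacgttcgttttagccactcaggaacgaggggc
The ER stress element lay at -162 to -144 in Calr, on the opposite strand, and at -145 to -127 in Canx. It was found in these 2 of the 6 windows and not in that of Pdia3, the third chaperone gene. Only 39 of the 32851 windows held it, which is 0.119%. The CCAAT box was in 5 of the 6 windows, all except that of Erap1, and in 37.4% of all windows. The letters of the gamma-activated site (TTCNNNGAA, 8.3% of all windows) and of the cyclic AMP response element (TGACGTNA, 2.93% of all windows) were in none of the 6. These are matches of letters and not measured binding, and their part in the differences below was not tested.

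B2m and H2-T23, a light and a heavy chain of class I molecules, were several-fold higher in the libraries labelled with Tubuloside B. B2m encodes β2-microglobulin, the light chain of every classical class I molecule, on chromosome 2 from 122147687 to 122153082 (plus strand). It had 1480 and 1358 CPM in LPS_IFNg_TubB and 292 and 313 CPM in LPS_IFNg. It had 1474 and 1239 CPM in TubB and 310 and 326 CPM in mock. The lowest library labelled with the compound thus had more than the highest library without it, and the groups did not overlap. By edgeR, B2m rose 4.68-fold in LPS_IFNg_TubB over LPS_IFNg, a log2 difference of 2.23 ± 0.08 (SE, n = 2 libraries per group, adjusted p = 5.86e-19). In TubB over mock it rose 4.27-fold, a log2 difference of 2.09 ± 0.08 (adjusted p = 1.89e-18).

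H2-T23 encodes the heavy chain of Qa-1, a class I-like molecule with little polymorphism that is recognised by inhibitory receptors of natural killer cells. It lies inside the MHC on chromosome 17 from 36029977 to 36032701 (minus strand). It had 329 and 276 CPM in LPS_IFNg_TubB, against 20.9 and 18.5 CPM in LPS_IFNg. TubB libraries had 320 and 256 CPM, against 22.5 and 15.1 CPM in mock. H2-T23 had the largest fold of the 9 genes in both comparisons. The log2 difference was 3.93 ± 0.18 in LPS_IFNg_TubB minus LPS_IFNg (15.3-fold, adjusted p = 2.52e-08) and 3.93 ± 0.18 in TubB minus mock (15.2-fold, adjusted p = 2.15e-08). Its fold was larger than that of its light chain, so that per kilobase of exon H2-T23 stood at 0.145 and 0.133 of the B2m level in LPS_IFNg_TubB and at 0.0466 and 0.0385 in LPS_IFNg. The same ratio was 0.142 and 0.135 in TubB and 0.0473 and 0.0303 in mock. These ratios hold only for the reads counted on the chromosomal row of H2-T23, which has copies. Replicate 1 of TubB and of LPS_IFNg_TubB was above replicate 2 for both B2m and H2-T23.

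**Figure D1:**
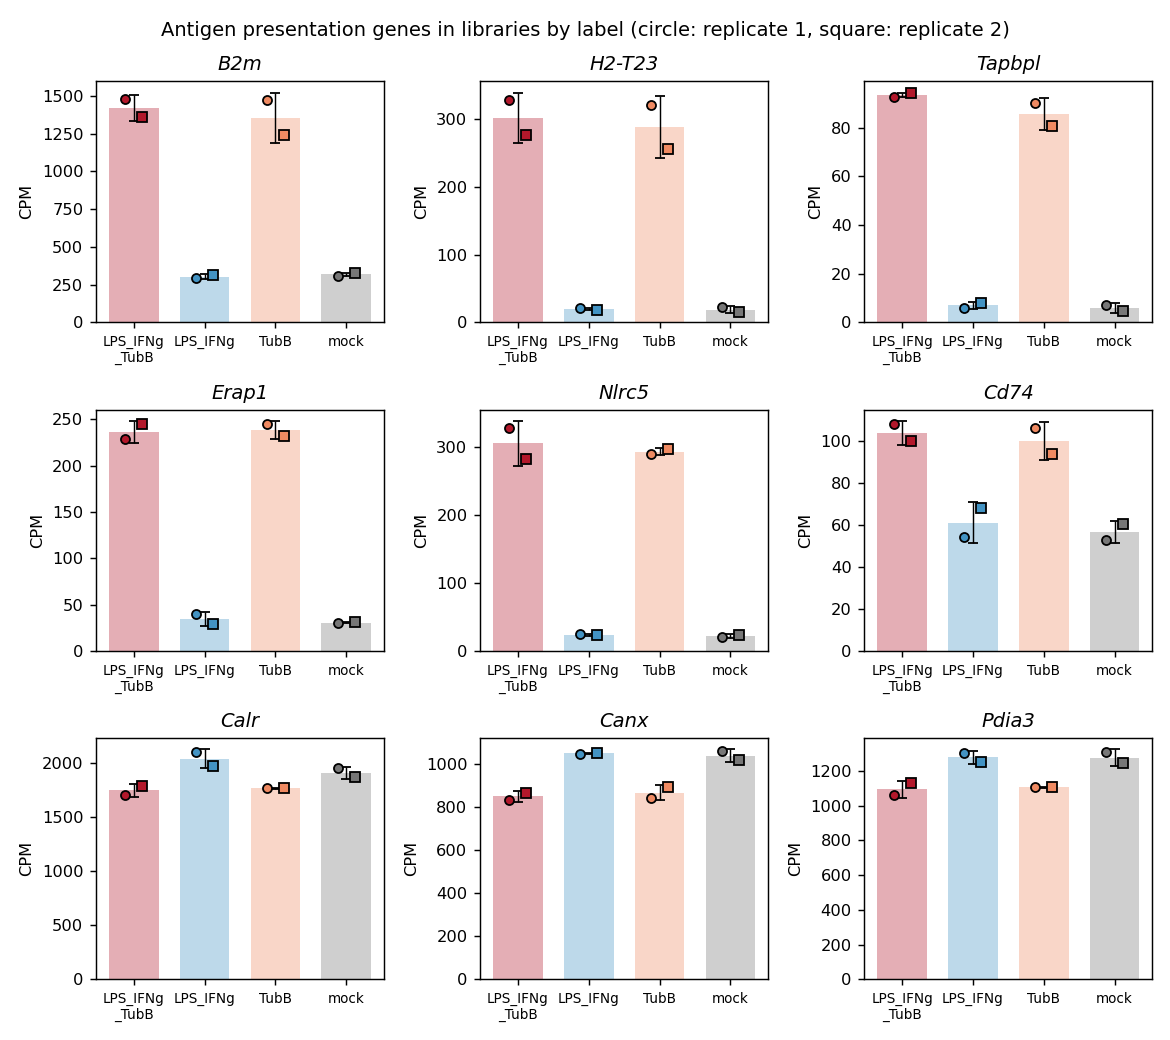
Expression of the 9 genes in CPM on linear axes from 0, by labelled group. Circles and squares are the libraries of replicates 1 and 2, bars are means and error bars are SDs (n = 2). B2m, H2-T23, Tapbpl, Erap1 and Nlrc5 were high in LPS_IFNg_TubB and TubB and low in LPS_IFNg and mock, Cd74 followed with a smaller step, and Calr, Canx and Pdia3 were slightly lower where the others were high.

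The genes that trim and edit peptides moved with the class I chains. Tapbpl encodes TAPBPR, a relative of tapasin that edits the peptides of class I molecules outside the loading complex, on chromosome 6 from 125223927 to 125231860 (minus strand). It had 92.7 and 94.2 CPM in LPS_IFNg_TubB, against 6.09 and 7.98 CPM in LPS_IFNg. In TubB it had 90.3 and 80.9 CPM, against 7.26 and 4.62 CPM in mock. Tapbpl was thus low in the 4 libraries without the compound label, where it rested on the fewest counts of the 9 genes, and more than 10-fold higher in every library with it. It rose 13.3-fold in LPS_IFNg_TubB over LPS_IFNg (log2 3.73 ± 0.17, adjusted p = 3.09e-17) and 14.3-fold in TubB over mock (log2 3.84 ± 0.17, adjusted p = 1.39e-17).

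Erap1 encodes the ER aminopeptidase that trims peptides to the length class I molecules hold, known in mouse as ERAAP, on chromosome 13 from 74639573 to 74693205 (plus strand). It had 228 and 245 CPM in LPS_IFNg_TubB, against 40.0 and 29.6 CPM in LPS_IFNg. The TubB libraries had 246 and 232 CPM, against 30.3 and 30.9 CPM in mock. The groups did not overlap, and the step was smaller than that of Tapbpl. Erap1 rose 6.79-fold in LPS_IFNg_TubB over LPS_IFNg (log2 2.76 ± 0.11, adjusted p = 8.88e-19) and 7.80-fold in TubB over mock (log2 2.96 ± 0.11, adjusted p = 1.23e-19). Of its exon length, 840 bases or 14.7% overlap the antisense gene Cast, which the kit cannot separate. Cast, the calpain inhibitor, had 519 and 691 counts in LPS_IFNg_TubB, 398 and 366 in LPS_IFNg, 550 and 827 in TubB, and 469 and 462 in mock, and its part in the Erap1 values was not tested.

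Nlrc5, the transactivator of class I genes, is on chromosome 8 from 94434335 to 94527272 (plus strand). It had 329 and 283 CPM in LPS_IFNg_TubB, against 25.0 and 22.8 CPM in LPS_IFNg. In TubB it had 290 and 298 CPM, against 20.4 and 23.9 CPM in mock. Its libraries did not overlap in either comparison, as for 76.2% of all genes in TubB minus mock and 75.9% in LPS_IFNg_TubB minus LPS_IFNg. The part of Nlrc5 in the levels of class I genes was not tested. Nlrc5 rose 12.8-fold in LPS_IFNg_TubB over LPS_IFNg (log2 3.68 ± 0.11, adjusted p = 4.9e-22) and 13.3-fold in TubB over mock (log2 3.73 ± 0.10, adjusted p = 2.17e-22). An antisense model, 9330175E14Rik, shares 99 exon bases with it and had 41 counts in all 8 libraries.

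Cd74, the invariant chain of the class II pathway, rose too, but by less than a doubling. It lies on chromosome 18 from 60803849 to 60812652 (plus strand). It had 108 and 99.96 CPM in LPS_IFNg_TubB, against 54.2 and 68.0 CPM in LPS_IFNg. It reached 106 and 93.7 CPM in TubB, against 53.0 and 60.3 CPM in mock. The groups did not overlap, although the gap was narrow beside those of the class I genes. Cd74 rose 1.70-fold in LPS_IFNg_TubB over LPS_IFNg (log2 0.77 ± 0.12, adjusted p = 2.16e-06) and 1.76-fold in TubB over mock (log2 0.81 ± 0.11, adjusted p = 6.46e-07). Relative to B2m per kilobase it therefore stood lower with the compound label, at 0.0442 and 0.0446 in LPS_IFNg_TubB, against 0.112 and 0.132 in LPS_IFNg. Ciita, the transactivator of class II genes, was too low to test, with 13 counts in LPS_IFNg_TubB, 2 in LPS_IFNg, 13 in TubB and 0 in mock.

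The folding proteins that class I chains share with other glycoproteins went the other way, and by little. Calr (calreticulin, chromosome 8, 84842088 to 84846931, minus strand) had 1705 and 1786 CPM in LPS_IFNg_TubB and 2098 and 1975 CPM in LPS_IFNg. In TubB it had 1770 and 1764 CPM, against 1950 and 1869 CPM in mock. All 4 libraries with the compound label were below all 4 without it. Calr fell by 0.22 ± 0.07 on the log2 scale in LPS_IFNg_TubB minus LPS_IFNg (adjusted p = 0.00543). In TubB minus mock the log2 difference was -0.11 ± 0.07 with a 95% interval from -0.25 to 0.02 (adjusted p = 0.157), which did not pass the threshold.

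Canx, the membrane-bound chaperone calnexin (chromosome 11, 50293957 to 50325673, minus strand), had 830 and 866 CPM in LPS_IFNg_TubB, against 1046 and 1050 CPM in LPS_IFNg. Its level was 841 and 891 CPM in TubB, against 1058 and 1018 CPM in mock. The gap between the groups was wider than the spread within them. Canx fell by 0.31 ± 0.07 on the log2 scale in LPS_IFNg_TubB minus LPS_IFNg (adjusted p = 0.000328) and by 0.26 ± 0.07 in TubB minus mock (adjusted p = 0.00163). Pdia3, the oxidoreductase ERp57 that forms disulfide bonds in heavy chains (chromosome 2, 121413902 to 121438687, plus strand), had 1062 and 1130 CPM in LPS_IFNg_TubB, against 1305 and 1253 CPM in LPS_IFNg. In TubB it had 1106 and 1109 CPM, against 1311 and 1245 CPM in mock. It was again lower in every library with the compound label. Pdia3 fell by 0.22 ± 0.07 in LPS_IFNg_TubB minus LPS_IFNg (adjusted p = 0.00605) and by 0.21 ± 0.07 in TubB minus mock (adjusted p = 0.0104). Of its exon length, 226 bases or 8.55% overlap the antisense gene Catsper2, which had 125 counts in all 8 libraries.

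These small decreases leaned on single libraries and on the scaling. Without replicate 1 of LPS_IFNg_TubB, the adjusted p in LPS_IFNg_TubB minus LPS_IFNg was 0.0983 for Calr and 0.121 for Pdia3, and without replicate 1 of LPS_IFNg it was 0.0871 for Calr and 0.0699 for Pdia3. Pdia3 had an adjusted p of 0.119 in TubB minus mock without replicate 1 of mock. With library totals alone as the scale, the median gene moved by -0.22 in LPS_IFNg_TubB minus LPS_IFNg and by -0.23 in TubB minus mock, and Calr stood at -0.33 in TubB minus mock (adjusted p = 3.47e-05), so its call there depended on the scale. Canx passed the threshold in both comparisons under the 17 alternatives with the same threshold, and no decrease passed a 2-fold minimum.

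**Figure D2:**
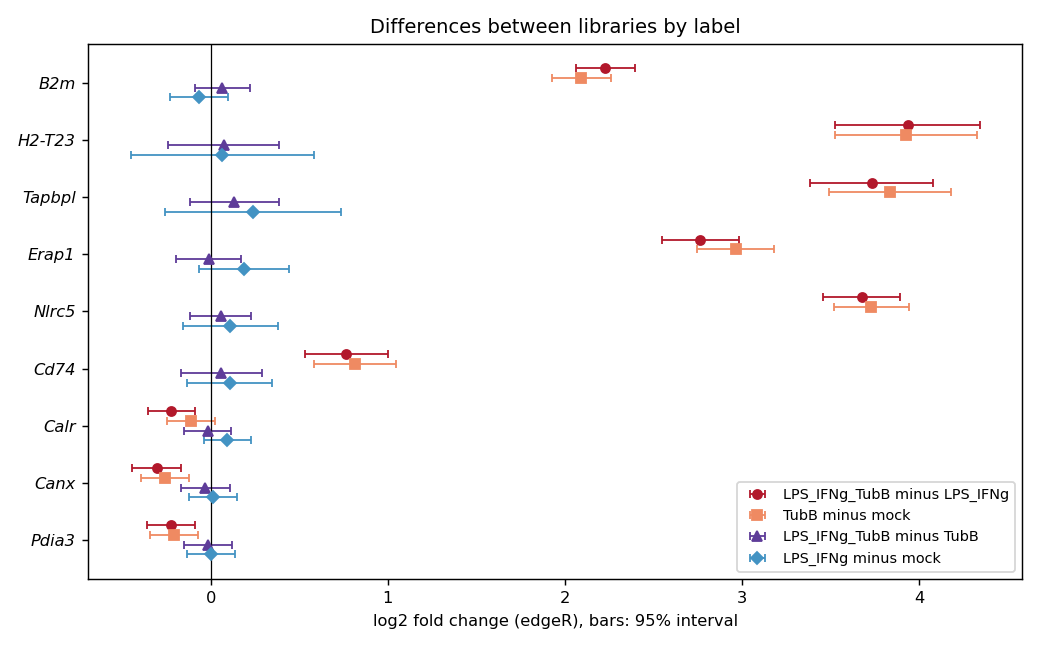
Log2 fold changes of the 9 genes in 4 comparisons between labelled groups, with 95% intervals from edgeR. Both comparisons of libraries with and without the compound label place B2m, H2-T23, Tapbpl, Erap1, Nlrc5 and Cd74 right of 0 and Canx and Pdia3 left of it, while every interval of LPS_IFNg_TubB minus TubB and of LPS_IFNg minus mock includes 0.

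In TubB minus mock, 6 of the 9 genes were higher and 2 lower, where 51.2% of the 11081 genes tested were called, 26.3% higher and 24.9% lower. In LPS_IFNg_TubB minus LPS_IFNg, 6 were higher and 3 lower, again beside 51.2% of all genes, 26.2% higher and 25% lower. With so much of the transcriptome called, the counts say little, and the sizes are given beside them. The genes were chosen with earlier results of these data known, so neither counts nor sizes test the group. Of all genes tested, 95.5% had a smaller absolute log2 difference than B2m in TubB minus mock, and 98.7% had a smaller one than H2-T23. The absolute difference of Cd74 exceeded that of 76.1% of genes, and that of Calr exceeded that of 15.4%. The median log2 difference of the 9 genes was 2.09 in TubB minus mock and 2.23 in LPS_IFNg_TubB minus LPS_IFNg, against -0.01 for all genes. When a change of more than 2-fold was required, 5 of the 9 genes were called in both comparisons, all higher, namely B2m, H2-T23, Tapbpl, Erap1 and Nlrc5. With that requirement, 832 of the 11081 genes were called in TubB minus mock, 646 of them higher. In LPS_IFNg_TubB minus LPS_IFNg, 835 of the 11081 genes were called, 634 of them higher. The libraries did not overlap for any of the 9 genes, which also held for 76.2% of all genes in TubB minus mock and 75.9% in LPS_IFNg_TubB minus LPS_IFNg.

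The comparisons TubB minus mock and LPS_IFNg_TubB minus LPS_IFNg share no library, although both come from 1 fit. As labelled, they compare the compound without and with the stimulus. All 9 genes had the same sign in both, and the estimates of a gene differed by at most 0.20 on the log2 scale. How many of all genes had the same sign was not counted. Of the 9 genes, 8 were called in both, beside 4817 of the 11081 genes tested. Of the genes called in 1 comparison, 85.0% were also called in the other, and all 4817 genes called in both had the same sign. LPS_IFNg_TubB minus mock, which shares libraries with both, had 6 of the 9 genes higher and 2 lower. There 51.9% of all genes were called, 26.6% higher and 25.3% lower, and the libraries did not overlap for any of the 9 genes and for 76.3% of all genes, with Calr at -0.13 ± 0.07 (adjusted p = 0.1).

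**Figure D3:**
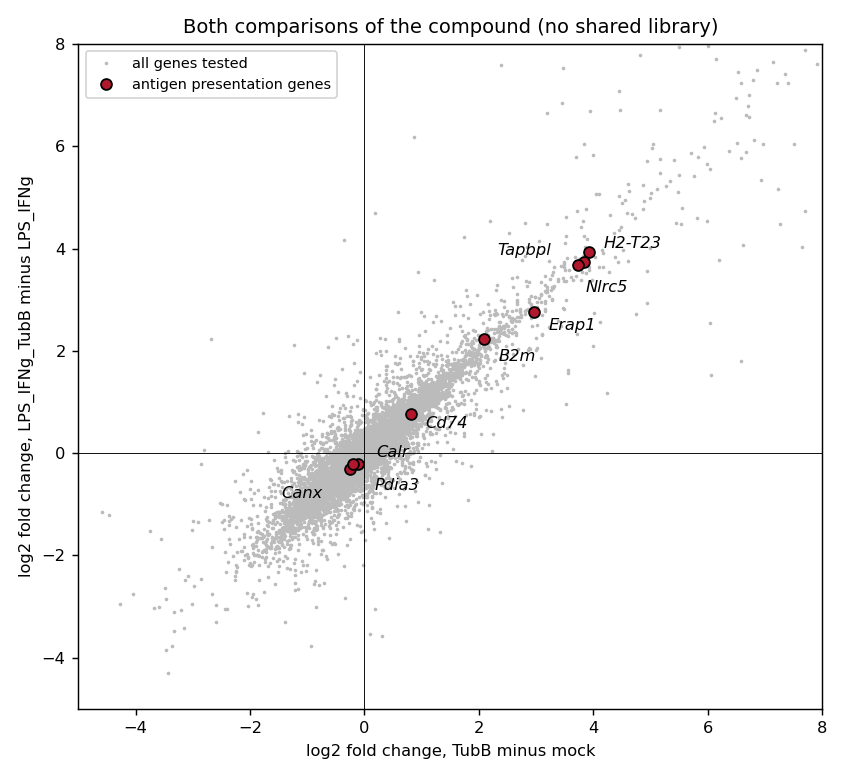
Log2 fold change in LPS_IFNg_TubB minus LPS_IFNg (vertical) against that in TubB minus mock (horizontal) for the 11081 genes tested (grey) and the 9 antigen presentation genes (red), which share no library between the axes. 47 genes lie outside the plotted range. Nlrc5, Tapbpl and H2-T23 sit together near 4 on both axes, Erap1, B2m and Cd74 follow below them, and Calr, Canx and Pdia3 lie just below 0.

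The labelled stimulus gave no call among the 9 genes. In LPS_IFNg minus mock, edgeR called 0 of the 9 genes and 0% of all 11081, with 0 of the 9 and 247 of all genes at an unadjusted p under 0.05. DESeq2 also called 0 genes, with 69 under an unadjusted 0.05. The log2 difference of B2m was -0.07, with a 95% interval from -0.23 to 0.09. For Erap1 it was 0.19, with an interval from -0.07 to 0.44, and for Nlrc5 0.11, from -0.16 to 0.38. The widest intervals were those of Tapbpl and H2-T23, from -0.26 to 0.73 around 0.24 for Tapbpl and from -0.45 to 0.58 around 0.07 for H2-T23. Cd74 had 0.11, with an interval from -0.13 to 0.35. The abundant chaperones were bounded most closely, with intervals from -0.04 to 0.23 for Calr, from -0.12 to 0.15 for Canx and from -0.13 to 0.14 for Pdia3. A doubling of any of the 9 genes lies outside these intervals. Calr libraries did not overlap here, as for 30.6% of all genes.

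The labelled stimulus on top of the compound likewise gave no call. In LPS_IFNg_TubB minus TubB, edgeR called 0 of the 9 genes and 0% of all genes, with 0 of the 9 and 269 of all genes at an unadjusted p under 0.05, and DESeq2 called 0 genes with 87 under an unadjusted 0.05. Tapbpl had the largest difference, 0.13, with a 95% interval from -0.12 to 0.39, and its libraries did not overlap, as for 26.8% of all genes. B2m had 0.07 (from -0.09 to 0.22), H2-T23 0.07 (from -0.24 to 0.39) and Nlrc5 0.06 (from -0.11 to 0.23). Erap1 had -0.01 (from -0.19 to 0.17) and Cd74 0.06 (from -0.17 to 0.29). The chaperone estimates were -0.02 for Calr, -0.03 for Canx and -0.01 for Pdia3, and none of their intervals went beyond -0.17 or 0.12.

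Whether the difference with the compound label depended on the stimulus label was tested as an interaction. It was called for 0 of the 9 genes and 0% of all genes, with 0 of the 9 and 277 of all genes at an unadjusted p under 0.05, and DESeq2 called 0 with 80 under an unadjusted 0.05. The estimates ran from -0.20 for Erap1 (95% interval from -0.51 to 0.11) to 0.14 for B2m (from -0.09 to 0.36). Intervals were widest for Tapbpl, from -0.66 to 0.45, and for H2-T23, from -0.60 to 0.62. For B2m, H2-T23, Tapbpl, Nlrc5 and Cd74 the mean was highest in LPS_IFNg_TubB, then in TubB, and for Erap1 highest in TubB, then in LPS_IFNg_TubB, and the libraries of these neighbouring groups overlapped except for Tapbpl. Calr, Canx and Pdia3 were highest in LPS_IFNg, then in mock, TubB and LPS_IFNg_TubB.

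Per kilobase of exon, which allows genes to be set beside each other, B2m was the most abundant of the 9 transcripts in LPS_IFNg_TubB and TubB, and Calr in LPS_IFNg and mock. B2m per kilobase was 1.97 and 1.72 times the Calr level in LPS_IFNg_TubB, against 0.316 and 0.359 times in LPS_IFNg. In TubB it was 1.89 and 1.59 times the Calr level, against 0.360 and 0.395 times in mock. The light chain and the chaperone thus changed places. The chaperones kept nearly fixed proportions to each other, with Canx between 0.215 and 0.247 and Pdia3 between 0.457 and 0.494 of the Calr level in every library. Over all 8 libraries the level per kilobase varied 21.7-fold for H2-T23, 20.4-fold for Tapbpl, 16.2-fold for Nlrc5, 8.31-fold for Erap1, 5.06-fold for B2m, 2.03-fold for Cd74, and 1.23-fold to 1.27-fold for the chaperones. The low end of Tapbpl, at 1.85 CPM per kilobase, was the lowest level of the 9 genes, and the high end of B2m, at 1725, was the highest.

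The 9 profiles fell into like and unlike pairs. Likeness was the root mean square (RMS) difference between log2 CPM profiles over the 8 libraries after each gene was centred, so that 0 means parallel profiles, and it describes these libraries without a test. Calr, Canx and Pdia3 were between 0.041 and 0.072 apart. Among the genes that rose, H2-T23 and Tapbpl were closest, at 0.192, followed by H2-T23 and Nlrc5 at 0.248 and Tapbpl and Nlrc5 at 0.267. B2m was nearest to Erap1, at 0.393, and Cd74 was nearer to Calr, at 0.500, than to B2m, at 0.687. The measure reflects the size of a change as well as its direction. Cd74 moved in the direction of B2m, by 0.81 in TubB minus mock, where Calr was at -0.11. Among 8516 other named genes of sufficient level, the profile most like that of B2m was Nlrp3 (RMS 0.060), then Sod2 (0.060). H2-T23 was most like Oas3 (0.091) and Dhx58 (0.132), Tapbpl most like Ralgds (0.162) and Psmb10 (0.176). Erap1 was most like Cybb (0.137) and Irf8 (0.148), Nlrc5 most like Enc1 (0.130) and Acod1 (0.152), and Cd74 most like Ccng1 (0.050) and P2ry6 (0.059). The chaperone profiles were closest to Sel1l (0.024) and Arhgap21 (0.030) for Calr, Eef1a1 (0.019) and Fmnl1 (0.021) for Canx, and Ssr3 (0.026) and Slc27a1 (0.029) for Pdia3.

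How much of the rest of the pathway could be counted differed sharply between its arms. Of 17 class I heavy chain and class I-like genes in the table, 14 have a numbered copy, 7 of these had 0 counts (H2-D1 among them), and 4 of the 17 could be tested. H2-T24, H2-T22 and Mr1 rose in both comparisons, beside 26.3% of all genes in TubB minus mock and 26.2% in LPS_IFNg_TubB minus LPS_IFNg, and Cd1d1 was not called. H2-T24 rose by 2.43 ± 0.28 in TubB over mock (adjusted p = 0.000173), H2-T22 by 2.05 ± 0.18 (adjusted p = 1.37e-10) and Mr1, which presents vitamin metabolites, by 0.95 ± 0.25 on the log2 scale (adjusted p = 0.00203). In LPS_IFNg_TubB minus LPS_IFNg the log2 differences were 2.86 for H2-T24, 2.26 for H2-T22 and 0.84 for Mr1. H2-T22 and H2-T24 each have 2 copies with 0 counts. The median log2 difference of the 4 genes was 1.503 in TubB minus mock, against -0.01 over all genes.

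Of 15 genes of peptide supply and loading, 5 have a numbered copy, and the transporter subunits Tap1 and Tap2, tapasin (Tapbp), and the immunoproteasome subunits Psmb8 and Psmb9 could not be tested. The 10 others could be tested. Of these, 6 were higher and 1 lower in TubB minus mock, where 26.3% of all genes were higher and 24.9% lower. In LPS_IFNg_TubB minus LPS_IFNg, 7 were higher and 1 lower, beside 26.2% and 25% of all genes. Psmb10, an immunoproteasome subunit outside the MHC, had 220 and 209 CPM in LPS_IFNg_TubB, 18.9 and 22.8 CPM in LPS_IFNg, 218 and 204 CPM in TubB, and 22.3 and 15.3 CPM in mock. It rose by 3.48 ± 0.12 on the log2 scale in TubB over mock (adjusted p = 1.6e-18). The proteasome activator subunits Psme2 and Psme1 rose by 2.98 ± 0.09 and 2.66 ± 0.09, and the aminopeptidase Lap3 by 1.48 ± 0.08. Thop1, a cytosolic endopeptidase known to destroy peptides, named after its values were seen as the single gene that was lower, fell by 0.91 ± 0.10 (adjusted p = 1.52e-08). In LPS_IFNg_TubB minus LPS_IFNg the differences were 3.36 for Psmb10, 3.05 for Psme2, 2.67 for Psme1, 1.39 for Lap3 and -0.79 for Thop1. The list median was 0.68 in both comparisons.

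The class II arm was also incomplete. Of its 17 genes other than Cd74, 10 have a numbered copy, 8 of those had 0 counts, the class II chains H2-Aa, H2-Ab1 and H2-Eb1 among them, and 6 could be tested. In TubB minus mock, the peptide and invariant chain protease Ctss rose by 1.98 ± 0.07, the intramembrane protease Sppl2a, which clears the Cd74 stub, by 1.14 ± 0.09 and Ctsl by 0.78 ± 0.07, while the ubiquitin ligase March8 fell by 0.38 ± 0.09 (adjusted p = 0.00124). Ctss had 789 and 771 CPM in LPS_IFNg_TubB, 205 and 198 CPM in LPS_IFNg, 790 and 724 CPM in TubB, and 190 and 195 CPM in mock. These differences stand beside 0.81 for Cd74 itself. In LPS_IFNg_TubB minus LPS_IFNg, 3 were higher and 2 lower, the additional one being the thiol reductase Ifi30 (-0.53 ± 0.20, adjusted p = 0.0278), which has 1 copy holding 263 counts. In all, 4 of the 6 genes were called in TubB minus mock and 5 of 6 in LPS_IFNg_TubB minus LPS_IFNg, beside 51.2% of all genes in each. There Ctss rose by 1.95 ± 0.07, Sppl2a by 1.08 ± 0.09 and Ctsl by 0.75 ± 0.07, and March8, the fifth by size and kept for the comparison, fell by 0.41 ± 0.10. The median of the 6 genes was 0.36 in TubB minus mock and 0.38 in LPS_IFNg_TubB minus LPS_IFNg.

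**Figure D4:**
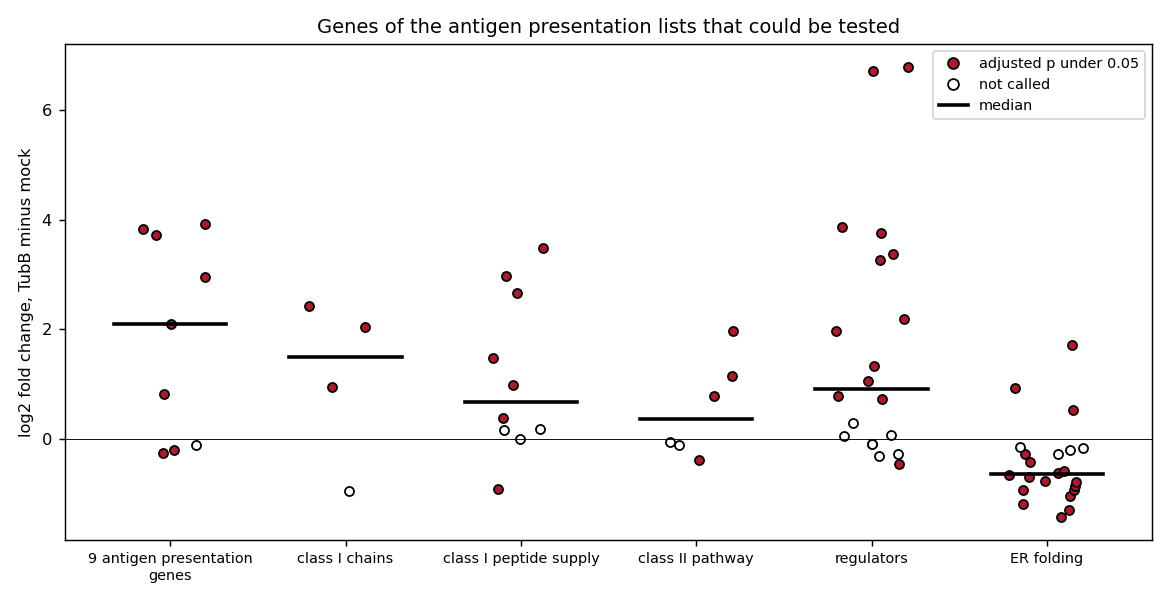
Log2 fold changes in TubB minus mock for the 9 genes and for the genes of 5 lists of the pathway and its ER neighbours that could be tested, with filled points at an adjusted p under 0.05 and bars at medians; horizontal offsets within a column only separate points. Medians were 2.09 for the 9 genes, 1.503 for class I chains, 0.68 for peptide supply, 0.36 for class II, 0.91 for regulators and -0.64 for ER folding genes.

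Of 21 regulators of MHC genes, 20 could be tested, and 12 were higher and 1 lower in TubB minus mock, 10 higher and 1 lower in LPS_IFNg_TubB minus LPS_IFNg. Among all genes, 26.3% were higher and 24.9% lower in TubB minus mock, and 26.2% and 25% in LPS_IFNg_TubB minus LPS_IFNg. Socs1, the feedback inhibitor of cytokine signalling, rose by 6.80 ± 0.35 in TubB over mock, where mock held only 6 counts, and Irf1 by 6.71 ± 0.11. Usp18, an inhibitor of type I interferon signalling, rose by 3.87 ± 0.52 (adjusted p = 0.00338) and Stat2 by 3.76 ± 0.22. In LPS_IFNg_TubB over LPS_IFNg, Irf1 rose by 7.01 ± 0.12, Socs1 by 6.12 ± 0.32, Stat2 by 3.63 ± 0.23 and Usp18 by 3.52 ± 0.51. The histone methyltransferase Ezh2, the single regulator that was lower and named after its values were seen, fell by 0.46 ± 0.11 in TubB minus mock and by 0.40 ± 0.12 in LPS_IFNg_TubB minus LPS_IFNg. The receptor subunits Ifngr1 (-0.28, adjusted p = 0.248) and Ifngr2 (0.07, adjusted p = 0.535), chosen here after their values were seen, did not pass the threshold in TubB minus mock. The list median was 0.91 in TubB minus mock and 0.83 in LPS_IFNg_TubB minus LPS_IFNg.

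The decreases of Calr, Canx and Pdia3 were small beside those of other ER folding genes. Of 23 such genes, 22 could be tested, and 15 were lower and 3 higher in TubB minus mock, 18 lower and 3 higher in LPS_IFNg_TubB minus LPS_IFNg, with medians of -0.64 and -0.69. Among all genes, 24.9% were lower and 26.3% higher in TubB minus mock, and 25% lower and 26.2% higher in LPS_IFNg_TubB minus LPS_IFNg. The disulfide isomerase Txndc5 fell by 1.43 ± 0.10 in TubB minus mock, Herpud1, which takes part in ER-associated degradation, by 1.29 ± 0.13, and the glucosidase Mogs by 1.18 ± 0.15. In LPS_IFNg_TubB minus LPS_IFNg, Txndc5 fell by 1.55 ± 0.10, Herpud1 by 1.37 ± 0.13 and Mogs by 1.19 ± 0.15. The 3 that rose in TubB minus mock were the oxidase Ero1l (1.71 ± 0.11), the disulfide isomerase P4hb (0.93 ± 0.08) and the glucosidase subunit Prkcsh (0.53 ± 0.08), the last 2 named after their values were seen. Ero1l also rose by 1.67 ± 0.11 in LPS_IFNg_TubB over LPS_IFNg. Hspa5, the ER chaperone BiP, also named after its values were seen, had 1099 and 1124 CPM in LPS_IFNg_TubB, 1969 and 1725 CPM in LPS_IFNg, 1150 and 1290 CPM in TubB, and 1968 and 1672 CPM in mock, and fell by 0.58 ± 0.08 in TubB minus mock (adjusted p = 2.08e-06). On library totals alone these log2 differences are lower still, by about the -0.23 given above for the median gene.

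No gene of the 5 lists was called in LPS_IFNg minus mock, in LPS_IFNg_TubB minus TubB or in the interaction by edgeR or DESeq2. Mr1 was the only list gene with an unadjusted edgeR p under 0.05 in LPS_IFNg minus mock (0.63 ± 0.26, adjusted p = 1) and in LPS_IFNg_TubB minus TubB (0.51 ± 0.23, adjusted p = 0.999), and Rfx5, a subunit of the factor that binds MHC promoters, was the only one in the interaction (-0.66 ± 0.32, adjusted p = 1). Mr1 had 19.1 and 15.04 CPM in LPS_IFNg_TubB, 9.22 and 9.68 CPM in LPS_IFNg, 11.9 and 11.8 CPM in TubB, and 5.86 and 6.35 CPM in mock. Both groups labelled with the stimulus thus averaged above their counterparts, without passing the adjusted threshold. The other genes with the smallest p of each list in LPS_IFNg minus mock had log2 differences of -0.45 (H2-T24), -0.11 (Thop1), 0.14 (Psmb10), 0.07 (Ctss), 0.16 (Ifi30), 0.24 (Irf8), 0.37 (Rfx5), -0.12 (Edem1) and 0.16 (Herpud1). In LPS_IFNg_TubB minus TubB they were 0.07 (H2-T22), 0.16 (Bcap31), 0.10 (Psme1), -0.26 (Ifi30), 0.04 (Ctss), -0.39 (Nfyb), 0.33 (Ifngr1), -0.16 (Sdf2l1) and -0.14 (Hspa5). In the interaction they were 0.43 (H2-T24), 0.21 (H2-T22), 0.17 (Bcap31), 0.12 (Thop1), -0.41 (Ifi30), 0.07 (Lgmn), -0.23 (Atf1), 0.14 (Edem1) and -0.16 (Hspa5).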

How the data were processed

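The authors deposited 1 table of raw counts, a column per library, made with STAR 2.7.0 and featureCounts per the submitters' processing notes. Per the file headers, featureCounts 2.0.1 assigned read pairs to genes by their exons (GRCm38.p6), with no option for strand or multi-mapped reads. The deposited table also gives an exon length in bases, used for levels per kilobase, and the authors deposited regularised log2 values (rlog), used as an alternative. Of the symbols, 1740 have a numbered copy and 1239 of these had 0 counts.

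Counts, totalling 4767894 to 8413834 per library, were tested with edgeR 4.0.16 (R 4.3.3): TMM scaling, filterByExpr (minimum count 10, minimum total 15), a robust quasi-likelihood fit of all 8 libraries with 1 term per group and 4 residual degrees of freedom, and Benjamini-Hochberg adjustment over 11081 genes, called under 0.05. CPM use TMM-scaled totals. Errors of log2 differences are SEs, and intervals are 95% on the moderated degrees of freedom; they cover no more than the spread between these libraries. The fit was also run on simulated counts. There only a small part of the genes changed, balanced up and down, so that run cannot check the scaling used here. The exact permutation test of 2 against 2 libraries cannot reach the threshold and was not used.

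Alternatives were RLE factors, no filter, 1 CPM in 2 libraries, a replicate block, the compared groups alone, DESeq2 1.42.0, limma-voom and limma (3.58.1) on rlog values, a 2-fold minimum, and each library left out. Library totals without factors were added after the data were seen. The genes, the lists, motifs and tests were chosen with earlier results of these data known. All 9 genes are named. Of each list, up to 4 called genes with the largest difference are named per comparison, and otherwise, with no call, the 2 lowest by p. Exceptions are marked as such. Genes like a member were the 2 with the smallest RMS difference among genes averaging 3 log2 CPM or more.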

Additional observations from a re-analysis of the deposited data

Results flagged for a closer look

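Reads of a classical class I heavy chain were found on rows outside the comparisons. The chromosomal row of H2-K1 held 0 to 10 counts per library, whereas 2 of its rows on alternate scaffolds, H2-K1_2 and H2-K1_3, held counts in every library. H2-K1_2 had a mean of 35.1 CPM in LPS_IFNg_TubB and 32.1 CPM in TubB, and H2-K1_3 had 81.4 CPM in LPS_IFNg_TubB and 75.7 CPM in TubB, each above its level in mock. Summed over both rows, H2-K1 had 125 and 108 CPM in LPS_IFNg_TubB, against 21.4 and 19.5 CPM in LPS_IFNg, and 117 and 98.9 CPM in TubB, against 17.3 and 20.3 CPM in mock. In TubB minus mock, the log2 difference was 2.12 ± 0.21 for H2-K1_2 and 2.71 ± 0.16 for H2-K1_3 (edgeR, adjusted p = 1.02e-09 and 1.9e-14), and in LPS_IFNg_TubB minus LPS_IFNg it was 2.34 ± 0.22 and 2.58 ± 0.16. These rows show the reads that mapped to 1 scaffold alone and not the whole of the gene's expression.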

How the results depend on the processing

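In the 3 comparisons with calls, the 6 genes that were higher kept their call under the 17 alternatives with the same threshold. A 2-fold minimum, which Cd74 did not pass, left 5 of the 9 genes and 832 genes in all in TubB minus mock, 835 in LPS_IFNg_TubB minus LPS_IFNg and 860 in LPS_IFNg_TubB minus mock. The deposited rlog values gave smaller differences, such as 1.38 for B2m in TubB minus mock. Leaving out each library gave 7 to 8 called genes of the 9 in TubB minus mock and LPS_IFNg_TubB minus mock and 7 to 9 in LPS_IFNg_TubB minus LPS_IFNg. In LPS_IFNg_TubB minus mock, Calr was called with library totals (-0.35) and limma-voom (-0.13), and Pdia3 was lost without replicate 1 of LPS_IFNg_TubB (adjusted p = 0.113) or of mock (0.0885). With library totals, 32.4% of the calls in TubB minus mock and 32.6% in LPS_IFNg_TubB minus LPS_IFNg were higher, against 51.4% and 51.2% with TMM. Over all genes, replicate differences correlated between groups from -0.05 to 0.15, highest for LPS_IFNg_TubB with TubB. In both of these groups replicate 1 was above replicate 2 for B2m, H2-T23, Cd74, Nos2 and Ptgs2. For Canx and Pdia3 replicate 2 was the higher in both groups. For Tapbpl, Erap1, Nlrc5 and Calr the replicates differed in opposite directions in the 2 groups. These values cannot decide whether library numbers pair the samples. A replicate block gave 5729 calls in TubB minus mock and 5753 in LPS_IFNg_TubB minus LPS_IFNg. It changed no call of the 9 genes.

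The comparisons without calls had no call under any alternative. The signs of the genes listed below were not stable, and the cause was not tested. In LPS_IFNg minus mock, B2m and Calr kept their sign under the alternatives with the same threshold. Tapbpl likewise kept its sign in LPS_IFNg_TubB minus TubB, and B2m, Calr and Canx kept theirs in the interaction. For LPS_IFNg minus mock, leaving out each library gave log2 differences from -0.013 to 0.042 for Canx, -0.067 to 0.26 for Cd74, -0.047 to 0.39 for Erap1, -0.19 to 0.38 for H2-T23, -0.0026 to 0.23 for Nlrc5, -0.034 to 0.040 for Pdia3 and -0.046 to 0.60 for Tapbpl. With no filter Canx was at -0.0036 and Pdia3 at -0.016, and Pdia3 was at -0.0032 with the compared groups alone and -0.0027 with library totals. For LPS_IFNg_TubB minus TubB, the ranges were -0.061 to 0.20 for B2m, -0.052 to 0.012 for Calr, -0.071 to 0.0072 for Canx, -0.041 to 0.15 for Cd74, -0.063 to 0.032 for Erap1, -0.093 to 0.24 for H2-T23, -0.059 to 0.16 for Nlrc5 and -0.062 to 0.026 for Pdia3. For the interaction, they were -0.20 to 0.13 for Cd74, -0.40 to 0.036 for Erap1, -0.31 to 0.26 for H2-T23, -0.17 to 0.059 for Nlrc5, -0.064 to 0.029 for Pdia3 and -0.47 to 0.18 for Tapbpl, and H2-T23 was at -0.0029 by DESeq2 and -0.0081 by limma-voom. The interaction needs all 4 groups, so it was not run on the compared groups alone. Where a library is left out, the lone library of its group is assumed to vary like the others. Counts were lowest for Tapbpl (32 in a library), and in mock the replicates differed by -0.62 on the log2 scale for Tapbpl and by -0.56 for H2-T23. For MHC genes with copies the reads counted are the limit.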
